A study of Homo sapiens with 6 samples.

Results

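A set of 31 genes of cholesterol and fatty acid synthesis was chosen by symbol from the 23290 genes of the deposited expression table. They fall into a sterol arm of 16 enzyme genes, a fatty acid arm of 9 enzyme genes, and 6 genes that regulate the pathway or handle sterols. All 31 were found in the table under these symbols. The cells were U87, a human glioblastoma cell line in long use, grown in medium with serum. They carried either a retrovirus silencing Caspase-8 (shC8, 3 libraries) or a scramble retrovirus (shCTR, 3 libraries). Retroviral infection is thus common to both groups. The labels name a single shC8 vector, and how many hairpins it stands for was not stated. The series as a whole concerns SRC kinase, Caspase-8 and NF-kB signalling in glioblastoma. The question put to these genes here was whether silencing moved the sterol arm and the fatty acid arm, and whether it moved them alike.

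Cholesterol is built from acetyl-CoA through mevalonate, isoprenoid units, squalene and lanosterol. Fatty acids are built from the same acetyl-CoA by carboxylation and chain synthesis, and are then elongated and desaturated. Transcription factors called SREBPs drive both sets of genes. SCAP carries SREBP precursors out of the endoplasmic reticulum when membrane sterol is low, and INSIG proteins hold them back when it is high. Serum lipoproteins are an outside source of both products, and glioblastoma cells are known for using lipoprotein uptake as well as synthesis.

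Values were FPKM, fragments scaled by transcript length and by the mapped fragments of a library, so that levels may be compared between genes. CASP8 stood at 4.39, 4.46 and 4.44 FPKM in shC8 1, 2 and 3, against 15.1, 14.9 and 13.4 FPKM in shCTR 1, 2 and 3. Its change was -1.51 on the log2(FPKM + 1) scale (SE 0.0705, limma adjusted p = 0.000206), which goes with the labels. FPKM leaves the depth of a library unknown. Relative to shCTR 1, the step size of low values put the other 5 libraries at depths of 1.08 to 1.21. Of 6 glial markers 5 averaged under 1 FPKM, GFAP lay between 0.0801 and 0.297 FPKM over the 6 libraries, and AQP4 was listed at 0 in each. The sixth, NES, was higher in shC8 (9.30, 12.2 and 11.7 FPKM, against 5.80, 8 and 7.05 FPKM in shCTR, change 0.60, limma adjusted p = 0.0293), and its part in the results below was not tested. The mesenchymal marker VIM lay between 3640 and 4710 FPKM. Summed endothelial markers reached at most 0.294 FPKM in shC8 and 0.339 FPKM in shCTR, and summed myelin markers at most 0.274 FPKM in shC8 and 0.272 FPKM in shCTR. The 5 adipocyte and liver markers summed to at most 0.196 FPKM in shC8 and 0.189 FPKM in shCTR. Summed myeloid markers lay between 137 and 153 FPKM in shC8 and between 150 and 158 FPKM in shCTR, nearly all of it CD68, while AIF1 was listed at 0 in each library and PTPRC reached at most 0.117 FPKM. Summed neuron markers lay between 20.8 and 21.8 FPKM in shC8 and between 20.7 and 24 FPKM in shCTR, most of it SNAP25. SNAP25 was lower in shC8 (14, 15.6 and 15.6 FPKM, against 16.1, 16.7 and 18.8 FPKM in shCTR), with a change of -0.18. That change did not pass (limma adjusted p = 0.191, and 0.0658 with the replicate block). SYT1 passed as higher with the replicate block and not without it (change 0.31, limma adjusted p = 0.0528, and 0.0418 with the block). The part of these markers in the results was not tested. In bulk RNA, fewer cells of a kind and less RNA per cell cannot be told apart.

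All 31 genes passed the minimum mean of 1 FPKM, and their levels spanned a wide range. ACLY, which makes cytosolic acetyl-CoA from citrate, was highest with a mean of 142 FPKM over the 6 libraries. EBP, INSIG1 and ELOVL5 followed at 91.0, 89.6 and 88.8 FPKM, and CYP51A1 and SCD at 72.8 and 62.0 FPKM. At the low end stood VLDLR at 5.26, HSD17B7 at 3.85, TM7SF2 at 2.94 and FADS2 at 2.08 FPKM. Of the 30 pairs of neighbours in this order, 27 had ranges over the libraries that overlapped. The 3 pairs without overlap lay below ACLY, below FDFT1 (49.9 FPKM) and below SCAP (12.3 FPKM). The step below ACLY was wide, from a lowest value of 125 FPKM to a highest of 108 FPKM for EBP. Those below FDFT1 (41.4 FPKM, against 40.6 FPKM for FDPS) and SCAP (11.4 FPKM, against 11.1 FPKM for FASN) were narrow. The 2 main fatty acid synthesis enzymes were modest in level, with FASN at 9.79 FPKM and ACACA at 6.19 FPKM.

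**Figure D1:**
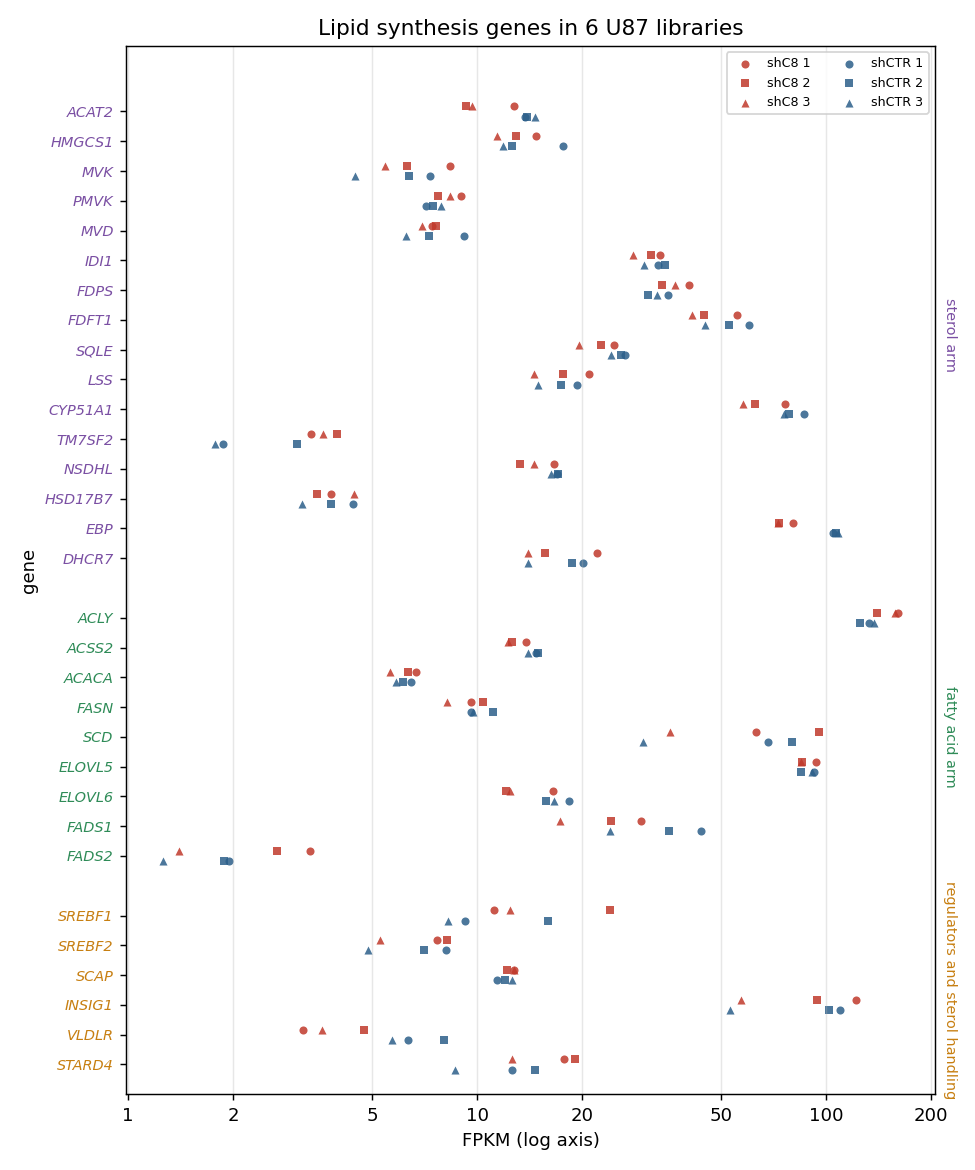
FPKM of each of the 31 genes in each library on a log axis, with shC8 points in red above shCTR points in blue and marker shape giving the library number. Groups stand apart for 6 genes, with shC8 lower for EBP, VLDLR, ACAT2 and ACSS2 and higher for TM7SF2 and ACLY. Over all tested genes they stand apart for 13.1% with shC8 lower and 21.7% with shC8 higher. For SCD and INSIG1 the libraries numbered 3 lie far to the left in both groups.

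For most of these genes the difference between shC8 and shCTR did not pass the test. EBP, a sterol isomerase gene of the late pathway, and VLDLR, a lipoprotein receptor gene, fell in shC8, and none of the 31 passed as higher in the fit without a replicate block. Each arm held genes with higher and with lower values in shC8. The test was limma's moderated test across 11598 genes on log2(FPKM + 1), with calls at an adjusted p under 0.05. Over all tested genes it called 7.14% higher and 4.94% lower in shC8, against 0 of 31 higher and 2 of 31 lower here. The share of called genes was thus not above that of the whole table. Without a replicate term, 15 of the 31 changes were positive and 16 negative, from -0.67 to 0.55.

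The numbers 1 to 3 in the labels also tied the libraries together, so the test was repeated with the number as a block. Deviations from the group means across the 31 genes correlated between same-numbered shC8 and shCTR libraries at 0.648, 0.876 and 0.844 for numbers 1, 2 and 3. Over all tested genes the same correlations were 0.397, 0.266 and 0.291. These are correlations across genes, which share the libraries. With the block, 5 of the 31 were called higher (TM7SF2, FDPS, ACLY, SREBF1 and STARD4) and 6 lower (EBP, VLDLR, FADS1, ACAT2, CYP51A1 and ELOVL6). The block called 16.1% of all tested genes higher and 10.6% lower. The column names end in numbers that split the libraries into a low and a high set, given with EBP, and the changes are given within the low and within the high set. FADS1 had changes of -0.13 in the low and -0.76 in the high set, ACAT2 of -0.14 and -0.51, CYP51A1 of -0.09 and -0.37, and ELOVL6 of -0.08 and -0.34. These sets hold 1 library of one group against 2 of the other. Number 1 is low in both groups and number 2 high in both, while shC8 3 is high and shCTR 3 low. Changes by set thus also carry differences between library numbers. STARD4 had changes of 0.71 and 0.07, SREBF1 of 0.32 and 0.10, and TM7SF2 of 0.62 and 0.25, while FDPS (0.25 and 0.19) and ACLY (0.25 in both) were closer. Within the numbers 1, 2 and 3, FADS1 had changes of -0.54, -0.53 and -0.46 and STARD4 of 0.46, 0.36 and 0.49. In the same order ACAT2 had -0.09, -0.53 and -0.56, CYP51A1 -0.18, -0.32 and -0.38, and ELOVL6 -0.15, -0.36 and -0.39. SREBF1 had 0.25, 0.56 and 0.53, and TM7SF2 0.60, 0.30 and 0.74. All 3 numbers gave the same sign for 58.1% of the 31 genes, against 60.8% of all tested genes. Numbers 1 and 2 also differ in set, so a difference between these cannot be assigned to either. Both directions appeared in the sterol arm, with 2 higher and 3 lower, and in the fatty acid arm, with 1 higher and 2 lower.

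**Figure D2:**
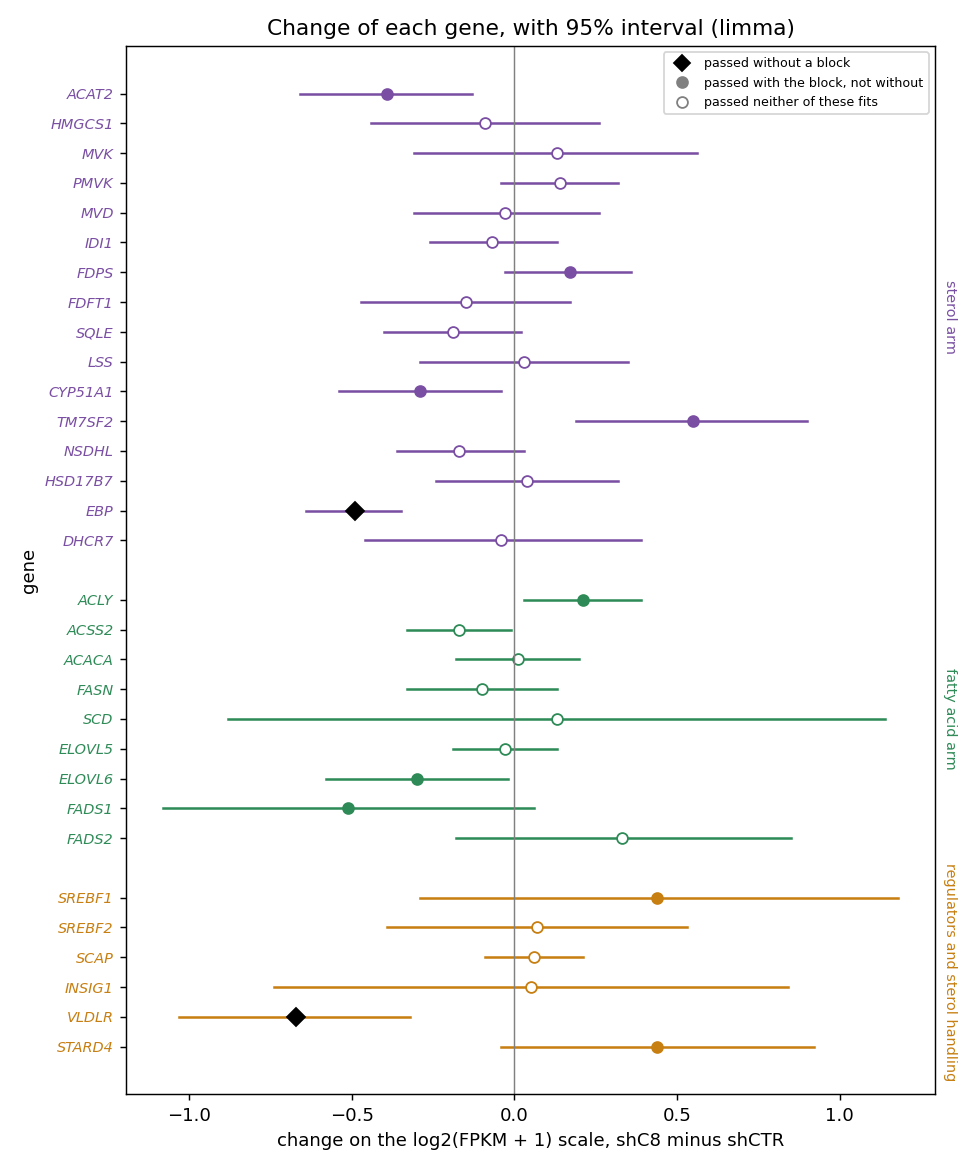
Change of each gene in shC8 minus shCTR on the log2(FPKM + 1) scale, with its 95% interval from the limma fit without a block. Black diamonds mark EBP and VLDLR, which passed the all-gene test, filled circles the 9 genes that passed with the replicate block and not without it, and open circles the genes that passed in neither of these 2 fits.

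EBP encodes the isomerase that shifts the ring double bond of the sterol nucleus after lanosterol. Its FPKM was 80.2, 73.4 and 72.7 in shC8 1, 2 and 3, against 105, 107 and 108 in shCTR 1, 2 and 3. The groups did not overlap, and the shCTR libraries lay close together. Means were 75.4 ± 4.10 FPKM in shC8 and 107 ± 1.16 FPKM in shCTR (SD, n = 3 each), so EBP in shC8 stood at 70.7% of its shCTR level. The change was -0.49 (SE 0.0624, limma adjusted p = 0.00498), and EBP was called in each of the 6 fits that left out 1 library (limma adjusted p up to 0.0307). Each column name in the table closes with a number of unstated meaning, low for shC8 1, shCTR 1 and shCTR 3 and high for shC8 2, shC8 3 and shCTR 2. The change of EBP was -0.41 among the low-numbered columns and -0.54 among the high-numbered ones. The gene (ENSG00000147155) lies on the plus strand of chromosome X from 48521158 to 48528716 in build GRCh38, the assembly called hg38, and no exon of another annotated gene overlaps its exons.

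VLDLR encodes the very low density lipoprotein receptor, which takes up lipoprotein and also binds reelin. It stood at 3.17, 4.73 and 3.59 FPKM in shC8 1, 2 and 3, against 6.33, 8.06 and 5.69 FPKM in shCTR 1, 2 and 3. All shC8 values lay under all shCTR values, and library 2 was the highest in both groups. Means were 3.83 ± 0.81 FPKM in shC8 and 6.69 ± 1.23 FPKM in shCTR (SD, n = 3 each). The change was -0.67 (SE 0.152, limma adjusted p = 0.0320), with -0.75 among low-numbered columns and -0.82 among high-numbered ones. The call ended without shC8 1 (limma adjusted p = 0.0671), shC8 3 (0.106), shCTR 1 (0.0817) or shCTR 2 (0.0849), and blocking on the number gave 0.00384. VLDLR (ENSG00000147852, plus strand of chromosome 9, 2621834 to 2660053) has the antisense gene VLDLR-AS1 over part of its exons. Whether the deposited values used strand was not stated, so reads of such partners may not be told apart.

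The promoters of both fallen genes are shown because they differ in the motifs that flank SREBP sites. SREBPs act on sterol response elements together with the factor NF-Y, whose box reads CCAAT. RefSeq promoters (build GRCh38.p14, 250 bases before to 50 after a gene's start) were found for 27 of the 31 genes. They were searched on both strands for CCAAT and for the sterol response element core TCACNCCAC, and capitals mark either motif. The EBP promoter (chrX:48521558-48521857, plus strand) holds 3 NF-Y boxes, which begin 191, 70 and 30 bases before the start. The VLDLR promoter (chr9:2621537-2621836, plus strand) holds neither motif in this window.
EBP: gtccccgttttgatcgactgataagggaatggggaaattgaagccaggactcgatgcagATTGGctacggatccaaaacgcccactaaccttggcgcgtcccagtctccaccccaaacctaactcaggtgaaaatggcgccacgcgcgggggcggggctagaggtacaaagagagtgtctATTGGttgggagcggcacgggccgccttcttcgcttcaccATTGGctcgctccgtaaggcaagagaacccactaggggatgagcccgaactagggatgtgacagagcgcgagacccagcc
VLDLR: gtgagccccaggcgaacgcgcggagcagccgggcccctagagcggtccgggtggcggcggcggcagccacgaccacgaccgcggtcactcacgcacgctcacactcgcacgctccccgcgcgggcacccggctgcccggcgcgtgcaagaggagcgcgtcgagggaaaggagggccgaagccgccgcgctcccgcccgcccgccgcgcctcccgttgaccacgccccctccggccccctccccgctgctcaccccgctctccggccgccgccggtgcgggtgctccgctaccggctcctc

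An NF-Y box was found in the promoters of 20 of the 27 genes (74.1%), against 44.2% of tested genes with a promoter and 34.6% of all promoters in the table. The GC box GGGCGG, bound by SP1, was found for 25 of the 27 genes (92.6%), against 78.1% of tested genes and 45.0% of all promoters. The E-box CACGTG was found for 4 of the 27 (14.8%), against 13.0% of tested genes and 7.26% of all promoters. The sterol element core as spelled here was found for SREBF2 alone, while 1.44% of tested genes and 1.13% of all promoters held it. A gene with several annotated starts was counted once if any of its promoters held the motif, and a match describes letters and not binding.

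In the sterol arm the early steps had differences of both signs. ACAT2, the cytosolic thiolase that opens the pathway, stood at 12.8, 9.32 and 9.69 FPKM in shC8 1, 2 and 3, against 13.7, 13.9 and 14.7 FPKM in shCTR 1, 2 and 3. The groups did not overlap, and the change was -0.39 (SE 0.114, limma adjusted p = 0.0649, and 0.0379 with the replicate block). Under quantile normalization and median-of-ratios scaling, ACAT2 was called lower (limma adjusted p = 0.0436 and 0.0414), as it was without shC8 1 (0.0116). Exons of ACAT2 are overlapped by antisense genes, TCP1 among them. HMGCS1, the HMG-CoA synthase gene, had a difference of -0.09 (95% interval -0.44 to 0.26). The mevalonate kinase gene MVK had a difference of 0.13, the phosphomevalonate kinase gene PMVK by 0.14 and the decarboxylase gene MVD by -0.03, and none of these passed with or without the block. IDI1, which interconverts the isoprenoid units, had a difference of -0.07. FDPS, the farnesyl diphosphate synthase gene, stood at 40.6, 34 and 37 FPKM in shC8 1, 2 and 3, against 35.3, 31 and 32.7 FPKM in shCTR 1, 2 and 3. Its groups overlapped, but within each number shC8 was higher, by 0.20, 0.13 and 0.17. The change of FDPS was 0.17 (SE 0.0833, limma adjusted p = 0.229, and 0.0463 with the block). FDPS has 8 named pseudogenes, which could share its reads.

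The steps from squalene onward had both signs as well. The squalene synthase gene FDFT1 had a difference of -0.15 and the squalene epoxidase gene SQLE by -0.19, with limma adjusted p of 0.498 and 0.212. LSS, which closes the ring to lanosterol, had a difference of 0.03 (95% interval -0.29 to 0.35). CYP51A1, the lanosterol demethylase gene, stood at 76.2, 62.6 and 57.9 FPKM in shC8 1, 2 and 3, against 86.3, 78.4 and 75.8 FPKM in shCTR 1, 2 and 3. It was lower in shC8 within each number, although shC8 1 lay above shCTR 3. The change of CYP51A1 was -0.29 (SE 0.108, limma adjusted p = 0.119, and 0.0159 with the block), and it was called without shC8 1 (0.0292). Exons of CYP51A1 are overlapped by 2 genes on its own strand and by the antisense gene CYP51A1-AS1. It also has 3 named pseudogenes, so part of its value may come from other genes. TM7SF2, a sterol reductase gene, stood at 3.34, 3.98 and 3.63 FPKM in shC8 1, 2 and 3, against 1.87, 3.04 and 1.77 FPKM in shCTR 1, 2 and 3. All 3 shC8 values were above all shCTR values. Its change of 0.55 had the largest positive size among the 31 (SE 0.152, limma adjusted p = 0.0577, and 0.0158 with the block), and it was called without shCTR 2 (0.0209). TM7SF2 shares exon sequence with VPS51 on the same strand, so part of its value may come from that gene. NSDHL, HSD17B7 and DHCR7, which encode later sterol enzymes, had a difference of -0.17, 0.04 and -0.04, and none passed with or without the block.

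At the head of the fatty acid arm, ACLY was higher in shC8, and passed with the block only. ACLY stood at 161, 140 and 158 FPKM in shC8 1, 2 and 3, against 133, 125 and 137 FPKM in shCTR 1, 2 and 3. The groups did not overlap, and the change was 0.21 (SE 0.0769, limma adjusted p = 0.113, and 0.0230 with the block). An antisense gene, AC125257.2, overlaps exons of ACLY. ACSS2, which makes acetyl-CoA from acetate, stood at 13.8, 12.6 and 12.3 FPKM in shC8 1, 2 and 3, against 14.8, 15 and 14 FPKM in shCTR 1, 2 and 3. Its groups did not overlap either, in the other direction, and its change of -0.17 did not pass (limma adjusted p = 0.155, and 0.0740 with the block). The core enzymes had small differences with intervals around 0. The acetyl-CoA carboxylase gene ACACA had a difference of 0.01 (95% interval -0.18 to 0.20) and the synthase gene FASN by -0.10 (95% interval -0.33 to 0.13).

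Elongation and desaturation genes differed in direction. The elongase gene ELOVL6, which extends saturated chains, stood at 16.5, 12.1 and 12.4 FPKM in shC8 1, 2 and 3, against 18.4, 15.8 and 16.6 FPKM in shCTR 1, 2 and 3. It had a difference of -0.30 (SE 0.121, limma adjusted p = 0.147, and 0.0235 with the block), and it was called without shC8 1 (0.0277). ELOVL5, which extends polyunsaturated chains, had a difference of -0.03 (95% interval -0.19 to 0.13). FADS1, the delta-5 desaturase gene, stood at 29.6, 24.2 and 17.3 FPKM in shC8 1, 2 and 3, against 43.7, 35.4 and 24.1 FPKM in shCTR 1, 2 and 3. Both groups had the same order of libraries, and shC8 was lower within each number by nearly the same amount, -0.54, -0.53 and -0.46. The change of FADS1 was -0.51 (SE 0.244, limma adjusted p = 0.208), and with the block its SE was 0.0480 and its adjusted p 0.00231. FADS2, the delta-6 desaturase gene, stood at 3.33, 2.68 and 1.4 FPKM in shC8 1, 2 and 3, against 1.95, 1.88 and 1.26 FPKM in shCTR 1, 2 and 3. Its change of 0.33 did not pass (limma adjusted p = 0.352, and 0.0732 with the block). Annotated exons of FADS1 and FADS2 overlap on opposite strands of chromosome 11. On its own strand FADS2 shares exon sequence with FEN1 and FADS1 with MIR1908, and FADS2 has 1 named pseudogene, so part of these values may come from other genes.

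SCD, the delta-9 desaturase gene that makes oleate, varied more between libraries than between groups. It stood at 63.0, 95.6 and 35.7 FPKM in shC8 1, 2 and 3, against 68.0, 79.8 and 29.9 FPKM in shCTR 1, 2 and 3. Library 2 was highest and library 3 lowest in both groups. Means were 64.8 ± 29.9 FPKM in shC8 and 59.3 ± 26.1 FPKM in shCTR (SD, n = 3 each), with a change of 0.13 (95% interval -0.88 to 1.14). The spread between libraries left changes of either sign within that interval, which is from the fit without the block. With the block the SE of SCD was 0.0827 in place of 0.433, and the change did not pass (limma adjusted p = 0.28). SCD has 1 named pseudogene.

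Among the regulators, SREBF1 and STARD4 were higher in shC8 within each number, as was SCAP by 0.15, 0.02 and 0.01. SREBF1, the SREBP gene tied most closely to fatty acid synthesis, stood at 11.2, 24.1 and 12.4 FPKM in shC8 1, 2 and 3, against 9.24, 16 and 8.28 FPKM in shCTR 1, 2 and 3. Library 2 was the highest in both groups, and the groups overlapped. The change of SREBF1 was 0.44 (SE 0.315, limma adjusted p = 0.385, and 0.0115 with the block). STARD4, a soluble sterol carrier gene, stood at 17.8, 19.1 and 12.6 FPKM in shC8 1, 2 and 3, against 12.6, 14.7 and 8.67 FPKM in shCTR 1, 2 and 3. Within the numbers 1, 2 and 3 STARD4 was higher by 0.46, 0.36 and 0.49. Its change was 0.44 (SE 0.205, limma adjusted p = 0.203, and 0.00513 with the block). An antisense gene overlaps exons of SREBF1 (RAI1) and of STARD4 (STARD4-AS1). SREBF2, the SREBP gene tied most closely to sterol synthesis, had a difference of 0.07 (95% interval -0.39 to 0.53), and SCAP had a difference of 0.06 (95% interval -0.09 to 0.21).

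INSIG1, which SREBPs are known to induce and whose protein retains SCAP, stood at 122, 94.4 and 56.9 FPKM in shC8 1, 2 and 3, against 110, 102 and 53.0 FPKM in shCTR 1, 2 and 3. Library 3 was lowest in both groups. Means were 91.2 ± 32.8 FPKM in shC8 and 88.0 ± 30.6 FPKM in shCTR (SD, n = 3 each), with a change of 0.05 (95% interval -0.74 to 0.84, limma adjusted p = 0.940). Blocking on the number brought the SE of INSIG1 to 0.0631 in place of 0.339, and it did not pass (limma adjusted p = 0.578).

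Set side by side, the arms did not differ by more than they varied between the pairs of libraries. The median change was -0.05 in the sterol arm and -0.03 in the fatty acid arm, beside 0.04 over all tested genes, and 0.07 among the 6 regulators. Within the numbers 1, 2 and 3 the sterol median was -0.06, -0.11 and -0.05, and the fatty acid median was 0.00, 0.00 and -0.11. The sterol median minus the fatty acid median was thus -0.06, -0.11 and 0.06, with both signs present. Mean log2(FPKM + 1) over the sterol arm was 4.13 ± 0.134 in shC8 and 4.18 ± 0.116 in shCTR, and over the fatty acid arm 4.43 ± 0.206 in shC8 and 4.48 ± 0.161 in shCTR (SD over libraries, n = 3 each). By column number, the sterol median was 0.06 in the low and -0.16 in the high set, the fatty acid median 0.03 and -0.24, and the regulator median 0.28 and -0.01. The low set held shC8 1 against shCTR 1 and shCTR 3, and the high set shC8 2 and shC8 3 against shCTR 2. Medians by set thus also carry differences between library numbers. Without shCTR 1 the sterol median was 0.07, and without shCTR 3 it was -0.16. The fatty acid median was -0.15 without shC8 2 and -0.13 without shCTR 3. These medians describe the lists, and no test was made over the members.

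The groups did not overlap for 6 of the 31 genes, 2 with shC8 higher (TM7SF2 and ACLY) and 4 with shC8 lower (EBP, VLDLR, ACAT2 and ACSS2). Over all tested genes, shC8 lay wholly above shCTR for 21.7% and wholly below for 13.1%. The difference between shC8 and shCTR accounted for a median of 25.9% of a member's variation over the 6 libraries, measured as sums of squares on the log2 scale, against 36.9% over all tested genes. The library number accounted for a median of 61.7% among the members, against 36.6% over all tested genes. The number has 3 levels and the group 2, so the share of the number and that of the group are not on equal terms.

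The pattern by library number was the most visible feature of these genes. In both groups library 3 was the lowest for 17 of the 31 genes (54.8%), against 14% of all tested genes. These 17 included 9 of the 16 sterol genes, 5 of the 9 fatty acid genes, and the regulators SREBF2, INSIG1 and STARD4. The number accounted for 98.2% of the variation of INSIG1, 96.7% for SCD, 96.5% for LSS, 93.3% for SREBF2 and 91.4% for ACACA. At the other end it accounted for 0.984% of the variation of EBP, of which 96.8% lay between the groups. For HSD17B7 neither did, with 80.9% left over. The libraries shC8 3 and shCTR 3 belong to different sets by column number, and the labels do not say what a number stands for. Relative to shCTR 1, the estimated depth was 1.08, 1.11 and 1.21 for shC8 1, 2 and 3, and 1.20 and 1.10 for shCTR 2 and 3. The part of depth in this pattern, and what library 3 of each group shared, were not tested.

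**Figure D3:**
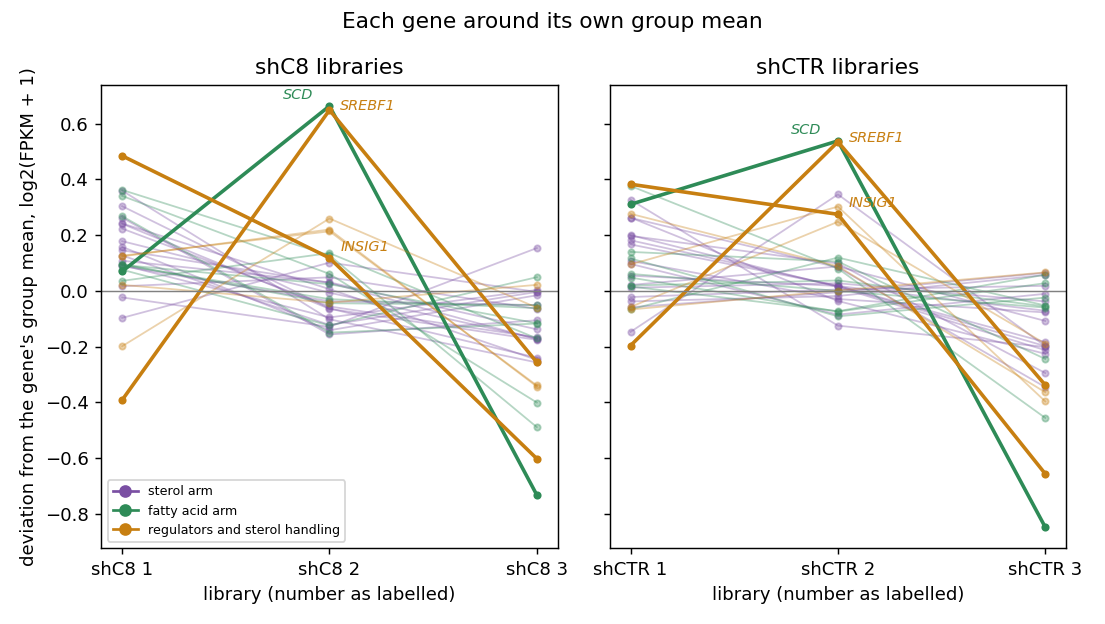
Deviation of each of the 31 genes from its own group mean on the log2(FPKM + 1) scale, in shC8 libraries on the left and shCTR libraries on the right, with lines that only join the values of a gene. SCD, INSIG1 and SREBF1 are drawn bold, and library 3 is the lowest for 17 of the 31 genes in both groups.

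SREBF1 was not among the 17 genes. It was lowest in library 1 among shC8 (11.2 FPKM) and in library 3 among shCTR (8.28 FPKM), and its library 2 stood far above both others in each group. SCD shared the high library 2 and INSIG1 did not. Promoters of INSIG1 and SCD are shown because the library number accounted for the largest shares of their variation, and that of SREBF2 because it is the one found to hold the sterol element core. The SREBF2 promoter (chr22:41832855-41833154, plus strand) holds that core, which begins 133 bases before the start, and an NF-Y box, which begins 106 bases before the start. The INSIG1 window is chr7:155297628-155297927, plus strand, and the SCD window is chr10:100346983-100347282, plus strand. Capitals mark CCAAT or TCACNCCAC on either strand, as above.
INSIG1: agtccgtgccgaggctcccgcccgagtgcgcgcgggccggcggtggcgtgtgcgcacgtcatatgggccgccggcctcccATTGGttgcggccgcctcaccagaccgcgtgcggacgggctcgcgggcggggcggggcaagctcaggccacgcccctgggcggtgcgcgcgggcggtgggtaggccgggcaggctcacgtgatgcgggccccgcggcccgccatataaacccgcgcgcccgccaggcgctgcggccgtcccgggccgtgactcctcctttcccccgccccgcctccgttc
SCD: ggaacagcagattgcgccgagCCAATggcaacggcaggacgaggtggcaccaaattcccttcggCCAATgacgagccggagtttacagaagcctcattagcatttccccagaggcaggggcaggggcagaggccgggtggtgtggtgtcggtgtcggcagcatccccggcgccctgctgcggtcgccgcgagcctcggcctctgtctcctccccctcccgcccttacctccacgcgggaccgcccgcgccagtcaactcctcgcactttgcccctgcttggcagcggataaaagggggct
SREBF2: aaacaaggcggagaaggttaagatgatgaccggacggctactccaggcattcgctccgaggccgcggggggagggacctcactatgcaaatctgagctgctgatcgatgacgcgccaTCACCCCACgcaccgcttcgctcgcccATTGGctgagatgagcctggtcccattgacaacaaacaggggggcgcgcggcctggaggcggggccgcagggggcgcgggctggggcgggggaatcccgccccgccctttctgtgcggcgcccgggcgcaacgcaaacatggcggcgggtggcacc

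**Figure D4:**
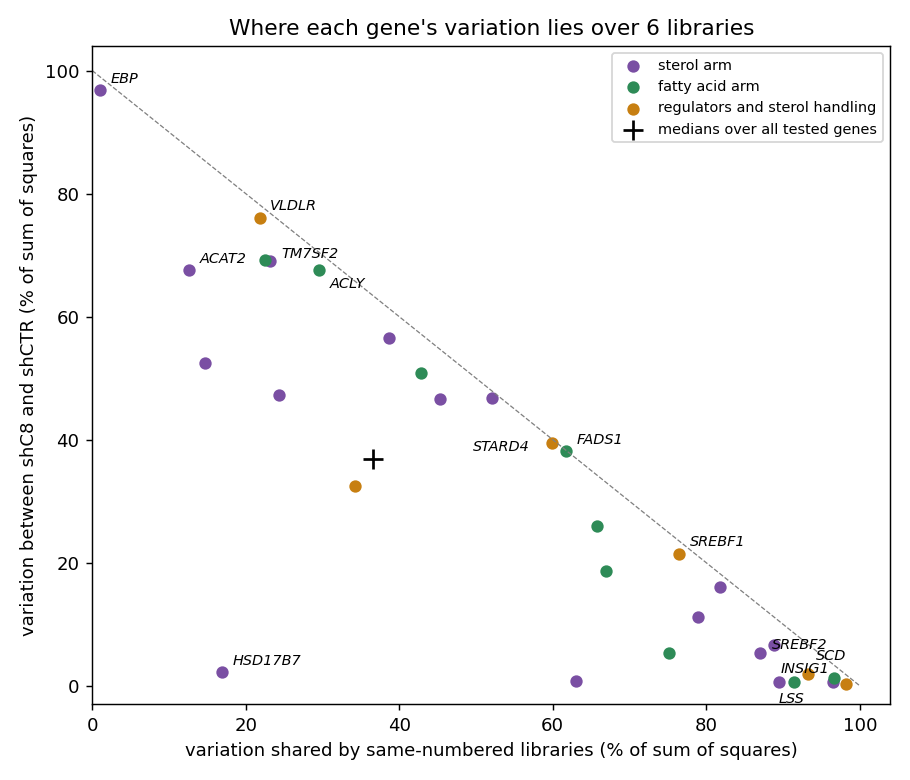
Share of each gene's sum of squares on the log2(FPKM + 1) scale that lies between shC8 and shCTR (vertical axis) and between library numbers (horizontal axis), in percent. EBP (96.8% between groups) and INSIG1 (98.2% between numbers) mark the ends, the cross gives the medians over all tested genes, and the dashed line is where nothing is left over. The number has more levels than the group, so the 2 axes are not on equal terms.

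Other genes around the pathway were called about as often as genes in general. Of 108 such genes 93 were tested, and 9 were higher and 4 lower in shC8 (14%, against 12.1% of all tested genes in both directions). With the replicate block 16 of the 93 were higher and 9 lower, beside 16.1% and 10.6% of all tested genes. With median-of-ratios scaling 3 were higher and 6 lower, beside 5.35% and 7.07% of all tested genes. The largest change was a fall of ELOVL7, an elongase gene, which stood at 5.14, 4.33 and 3.62 FPKM in shC8 1, 2 and 3, against 12.5, 10.6 and 9.40 FPKM in shCTR 1, 2 and 3. Its groups stood far apart, with a change of -1.14 (SE 0.133, limma adjusted p = 0.00390) and a call in each of the 6 fits without 1 library. Among 13 tested genes of the other fatty acid list, SCD5, a second stearoyl desaturase gene, was higher by 0.32 and 11 were not called. The block gave 2 higher and 2 lower among these 13.

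Of 7 further sterol synthesis genes 2 were higher and none lower (28.6% called, against 12.1% of all tested genes). With the replicate block 4 of the 7 were higher and none lower, beside 16.1% and 10.6% of all tested genes. Of the 7 changes 6 were positive. Their median was 0.20, against -0.05 in the 16-gene sterol arm, and this difference was not tested. LBR, whose protein is a nuclear envelope sterol reductase that catalyses the same step as TM7SF2, stood at 45.2, 43.6 and 41.6 FPKM in shC8 1, 2 and 3, against 29.1, 29.3 and 32.2 FPKM in shCTR 1, 2 and 3. All shC8 values were well above all shCTR values. The change of LBR was 0.51 (SE 0.0667, limma adjusted p = 0.00561), and it was called in each of the 6 fits without 1 library. Among 10 other SREBP control genes, the site-1 protease gene MBTPS1 and RNF145 each rose by 0.30, ERLIN2 fell by 0.47, and 7 were not called. The block gave 3 higher and 1 lower among these 10. Of 10 genes of the non-sterol isoprenoid branch only DOLK, the dolichol kinase gene, was called without the block, higher by 0.28. With the block 2 of these 10 were higher and none lower.

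Transport and breakdown genes added single calls. NPC1, which exports cholesterol from lysosomes, stood at 55.8, 54.1 and 43.4 FPKM in shC8 1, 2 and 3, against 71.6, 79.2 and 65.5 FPKM in shCTR 1, 2 and 3. It was lower in shC8 (change -0.49, SE 0.112, limma adjusted p = 0.0328), and the other 10 tested uptake and transport genes were not called. With the block 2 of the 11 tested were lower and none higher. NR1H3, the gene of the oxysterol receptor LXR-alpha, fell by 0.35 and was the only call without the block among 5 tested LXR and efflux genes. With the block 2 of these 5 were higher and 1 lower. CPT2 was higher by 0.30 among 13 tested oxidation genes, and the AMPK subunit genes PRKAA2 and PRKAB2 by 0.43 and 0.27 among 6. The block gave 1 higher among the 13, and 2 higher and 1 lower among the 6. Without the block no gene was called among 5 of sterol esters and oxysterols, 5 of mitochondrial fatty acid synthesis and 8 of acyl activation and lipid assembly. With it 2 of the 8 were lower, and the sterol ester and mitochondrial lists again held no call. Most of the calls made without the block in these lists were lost in fits on fewer libraries. Of the 6 fits without 1 library, ERLIN2 was called in 3, NPC1 and SCD5 in 2, MBTPS1, RNF145, NR1H3 and CPT2 in 1, and DOLK, PRKAA2 and PRKAB2 in 0, with adjusted p up to 0.155. Leaving out shC8 2, shC8 3 or shCTR 2 ended the call of each of these 10 genes, and each other library ended the call of some.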

How the data were processed

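Ribosome-depleted, stranded total RNA libraries of 6 U87 samples were sequenced, per the labels' protocols. The authors deposited 1 table of FPKM, by gene and library. The submitters' processing notes list TopHat, Cufflinks, Cuffdiff and hg38 but give neither their versions nor their roles, and the annotation and use of strand were not given. FPKM values hold no counts, so no count model or counting interval was used. The series calls the 3 libraries of each group biological replicates and does not describe separate cultures. The p-values thus speak only of variation among these 6 libraries, which may be technical.

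The 11598 of 23290 genes that averaged 1 FPKM or more were tested on log2(FPKM + 1) with limma 3.58.1 in R 4.3.3, moderated with a mean trend, two-sided, with Benjamini-Hochberg adjustment over all of them and calls under 0.05. Changes on this scale understate those of low genes. Same-numbered libraries deviated together (correlations of 0.397, 0.266 and 0.291 across genes), so blocked values stand beside member results they change. For the other pathway lists the block is given as counts of calls. The numbers pair the samples by these data, not by a label. Every member was reported, and of other lists up to 4 called genes with the largest change, or all where 5 or fewer were called. Members and lists were chosen with earlier results of these data known. Some genes of these lists are not reported here. Of 174 list symbols 6 were matched through older symbols. Gene positions came from GENCODE 29 and promoters from RefSeq. On simulated data with 200 of 11598 genes changed between shC8 and shCTR, the fit recovered 55% of changes of 0.5 and 90% of changes of 1, with 5.23% false calls. The simulated noise was independent for each gene and library, without a shared effect of the library number. These rates therefore may not hold for the real libraries. Alternatives changed the pseudocount (0.1), the filter (none, or 5 FPKM), the scaling (quantile or median-of-ratios), the moderation (no trend) and the model (a replicate block, or a term for low against high column numbers), or left out each library in turn.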

Additional observations from a re-analysis of the deposited data

How the results depend on the processing

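CASP8 and EBP kept their direction and call under all 14 alternatives. VLDLR kept its direction under all 14, and without a filter on low values its limma adjusted p was 0.0786. Of the 31 genes 11 had changes of both signs over the settings, and none of these was called in any. The count of called members was 1 of 31 without the filter, 11 with the replicate block, and between 1 and 4 with 1 library left out. The 4 came without shC8 1 and were all lower, beside 647 of 11598 tested genes called lower in that fit. The count over all 11598 tested genes was 1401 (828 higher, 573 lower), and 979 of 18724 without the filter. It was 3086 with the block and 1244 with a term for the column number. Quantile normalization gave 1446 (715 higher, 731 lower) and median-of-ratios scaling 1441 (621 higher, 820 lower). With 1 library left out the count lay between 477 and 1346, the highest without shC8 1. The other pathway lists held 13 calls, 7 without the filter, 25 with the block and 8 with a term for the column number. With 1 library left out they held between 2 and 11, the highest again without shC8 1. Under median-of-ratios scaling, where the median of all genes moved from 0.038 to -0.008, the sterol median was -0.101 and the regulator median 0.02. With a term for the column number the sterol median was -0.014. With 1 library left out, the sterol median lay between -0.162 and 0.065, the fatty acid median between -0.153 and -0.003, the regulator median between -0.007 and 0.297, and the sterol minus fatty acid difference between -0.072 and 0.088. The cause of these shifts was not tested. With absolute depth unknown, precision rests on 3 libraries a group.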

Other observations

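The ratio of FADS1 to FADS2, neighbours on chromosome 11, was compared after their values were seen, so no test is given. As log2 of (FADS1 + 1) over (FADS2 + 1), it was 2.82, 2.77 and 2.93 in shC8 1, 2 and 3, against 3.92, 3.66 and 3.48 in shCTR 1, 2 and 3. All shC8 ratios lay below all shCTR ratios, with means of 2.84 in shC8 and 3.69 in shCTR and a difference of -0.85. Each gene alone had groups that overlapped. Exons of these genes overlap on opposite strands, FADS2 also shares exon sequence with FEN1 and FADS1 with MIR1908 on their own strands, and FADS2 has a named pseudogene. The ratio depends on how the deposited values assigned such reads.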
